A study of Mus musculus with 3 samples.

Results

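The glycolytic enzymes described here were 10 genes that cover the path of glucose from hexokinase to lactate: Hk1, Hk2, Gpi1, Pfkl, Aldoa, Tpi1, Gapdh, Pgk1, Pkm and Ldha. They were chosen by name, and all 10 were found among the 54532 genes of each deposited table. The mice had received 4T1-DM tumour cells to model metastasis to the dura (the name 4T1 belongs to a mammary carcinoma line of the mouse), and RNA came from cells of their dorsal dura mater, which is the tough outer covering of the brain. By label the cells lacked CD45, found on leukocytes, and carried CD31, found on endothelium, together with PDPN, found on lymphatic endothelium. The groups were ZOL+Ang2, ZOL and PBS, names that the labels do not expand, and all 3 groups carried 4T1-DM cells, so no group without tumour cells was in the design. Each group was 1 library from 6 mice pooled 12 days after inoculation. The sources used here state no strain, sex, age or dose. With 1 library a group no test was possible, and the differences below hold for these 3 libraries, with the spread between animals unknown.

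Glycolysis splits glucose into pyruvate and yields ATP without oxygen. Its early steps, from hexokinase to aldolase and triosephosphate isomerase, spend ATP to trap and cleave the sugar, and its later steps, from GAPDH to pyruvate kinase, win ATP and NADH back. Lactate dehydrogenase then turns pyruvate into lactate and regenerates NAD+. Endothelial cells are known to draw most of their ATP from this path, and carcinoma cells often run it at a high rate in the presence of oxygen. Most steps can be served by paralogues that differ by tissue, and the transcription factors HIF-1 and MYC are known activators of many of these genes.

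The libraries held 9204901 (ZOL+Ang2), 16586760 (ZOL) and 1675532 reads (PBS) recovered from the deposited RPKM values (reads scaled by gene length and library total), so PBS values were the least precise. The PBS library also differed in make-up: satellite-type gene models took 21.9% of its reads and mitochondrially encoded genes 12.1%, against at most 3.46% and 1.52% in the other libraries. Pecam1, the gene of CD31, had 1556 reads in ZOL+Ang2 and 7454 in ZOL but 2 in PBS, which goes against the CD31 label of that library. Ptprc, the gene of CD45, whose carriers the selection was to remove, had 667, 394 and 289 reads in ZOL+Ang2, ZOL and PBS. The 7 lymphatic markers were uneven: in the same order of libraries Pdpn had 1496, 1059 and 35 reads, Flt4 209, 1113 and 1, Ccl21a 34, 175 and 0, Mmrn1 105, 181 and 288, Reln 69, 135 and 185, Prox1 0, 0 and 2, and Lyve1 0 in each. The 16 endothelial markers summed to 1894, 5623 and 4695 CPM (reads scaled to a common library size, with TMM factors). Pecam1 and Erg had 2 reads each in PBS, whereas Cldn5 stood at 326, 1151 and 1772 CPM and Vwf at 272, 1059 and 972. In ZOL against PBS, 7 of the 16 were at least 2-fold higher, 2 lower and 7 within 2-fold. The shares over all genes averaging 10 CPM or more were 49.2%, 29.4% and 21.3%. Among the 16 markers, Erg reached that mean only through ZOL, so its direction follows from that limit. In pooled bulk RNA, fewer cells of a type and less RNA per cell cannot be told apart.

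Gapdh, the enzyme that oxidises glyceraldehyde 3-phosphate and a common loading control, was listed far below its neighbours in the path. It had 145 reads in ZOL+Ang2, 244 in ZOL and 0 in PBS (ENSMUSG00000057666, chromosome 6, 125161715 to 125166467, minus strand, GRCm38). Processed copies of its transcript held most of the reads instead. Against all annotated mouse transcripts, the Gapdh coding sequence had a stretch of at least 150 bases with at least 95% identity in 78 other genes, 76 of them pseudogenes, and 72 of the 78 had reads. The pseudogene Gm13394 (chromosome 2, 28933610 to 28934609, minus strand) differed from Gapdh at 1 of 1000 aligned bases. Both sequences are shown around that base, which is in capitals, because it is the only letter that can tell a read of Gm13394 from a spliced read of Gapdh in the aligned stretch. The difference is A424C, counted from base 1 of the longest Gapdh coding sequence in GENCODE M21, the source of both sequences, and the stretch runs from base 374 to 474.
Gapdh: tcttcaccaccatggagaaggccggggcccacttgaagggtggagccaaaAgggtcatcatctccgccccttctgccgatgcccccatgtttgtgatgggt
Gm13394: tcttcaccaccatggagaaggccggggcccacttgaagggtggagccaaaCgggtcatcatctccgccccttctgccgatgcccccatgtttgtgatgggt

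Gm13394 had 4821 reads in ZOL+Ang2, 6945 in ZOL and 451 in PBS. That was 73.3% of all reads on Gapdh and its copies in ZOL+Ang2 (exact 95% binomial interval 72.2% to 74.4%, counting error only), 78.3% in ZOL (77.4% to 79.1%) and 61.4% in PBS (57.7% to 64.9%). Gapdh itself held 2.204% of them in ZOL+Ang2, 2.75% in ZOL and 0% in PBS. The level listed for Gapdh is therefore uncertain: the sources used here do not say what was done with reads that fit several genes. Gapdh and its 78 copies together stood at 750.1 CPM in ZOL+Ang2, 565 in ZOL and 396 in PBS. Together they were 1.43-fold higher in ZOL than in PBS (exact 95% counting interval 1.32 to 1.54) and 1.33-fold higher in ZOL+Ang2 than in ZOL (1.29 to 1.37). Their log2 fold in ZOL against PBS, 0.51, differed by -0.43 from the median of all genes averaging 10 CPM or more. Another scaling, with median-of-ratios factors, moved that median by -1.11, so the direction of the first ratio depends on the scaling. Gapdh alone was at least 9.63-fold higher in ZOL than in PBS, set against a floor of 3 reads in PBS. For Gpi1, Tpi1, Pgk1, Pkm and Ldha the copies found in the same way held under 2% of the reads in each library, and Hk1, Hk2, Pfkl and Aldoa had none.

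**Figure D1:**
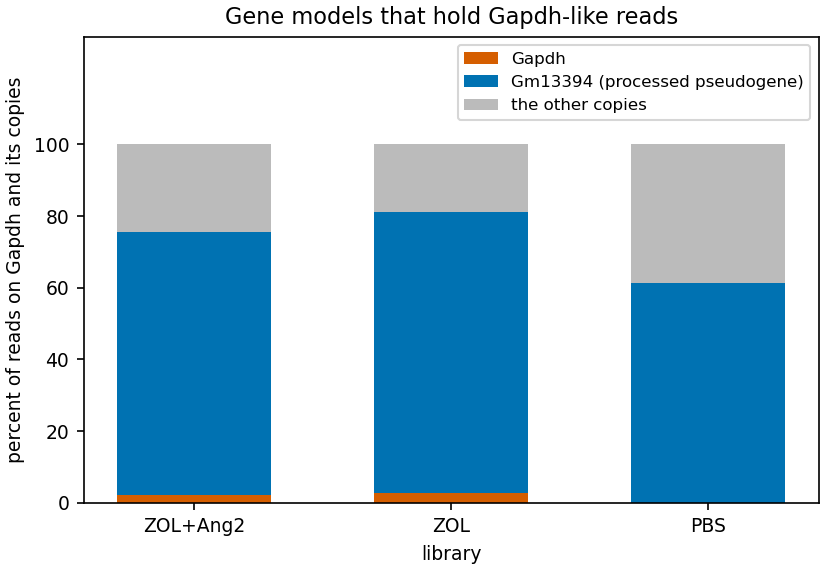
Stacked bars give the percent of reads (vertical axis) on Gapdh, on the processed pseudogene Gm13394 and on the other copies of Gapdh in each library (horizontal axis), out of all reads on Gapdh and its 78 copies. Gapdh holds 2.204% in ZOL+Ang2, 2.75% in ZOL and 0% in PBS, and Gm13394 holds 73.3%, 78.3% and 61.4%.

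Within a library, levels can be compared between genes per length. In ZOL+Ang2 and in ZOL the genes from aldolase on were high, apart from Gapdh as listed, and those before it low. Among the 10 genes as listed, Pkm, pyruvate kinase of most tissues outside liver, was highest at 354 RPKM in ZOL+Ang2 and 306 in ZOL, followed by Aldoa at 249 and 279. The pseudogene Gm13394, which is not among them, stood at 411 RPKM in ZOL+Ang2, 293 in ZOL and 403 in PBS. The order given here and the shares below leave it out. Hk1 and Hk2, which phosphorylate glucose, lay near the other end at 3.63 and 5.27 RPKM in ZOL+Ang2 and at 7.67 and 2.25 in ZOL. In PBS the order differed. Aldoa led with 343 RPKM, followed by Tpi1 with 176, Pkm with 136, Ldha with 115 and Pfkl with 106, while Pgk1 stood at 5.97. Neighbours in the order whose exact 95% Poisson intervals overlapped were Hk1 and Gapdh in ZOL+Ang2, Gapdh and Hk2 in ZOL, and in PBS Ldha and Pfkl, Hk2 and Gpi1, Gpi1 and Pgk1, and Hk1 and Gapdh, both at 0.

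Shares of the summed RPKM of the 10 genes do not depend on how libraries are scaled. Pfkl, the liver-type phosphofructokinase of the committed step, made up 1.76% in ZOL+Ang2, 2.42% in ZOL and 11.7% in PBS. Pgk1, phosphoglycerate kinase, went the other way at 13.7%, 8.03% and 0.658%. The share of Tpi1, triosephosphate isomerase, was the most even at 16.9%, 15.6% and 19.4%. The RPKM of a gene depends on the union of its annotated exons, which is 4133 bases for Gapdh and 8532 for Hk1 while their transcripts with the longest coding sequence have 1273 and 3639.

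**Figure D2:**
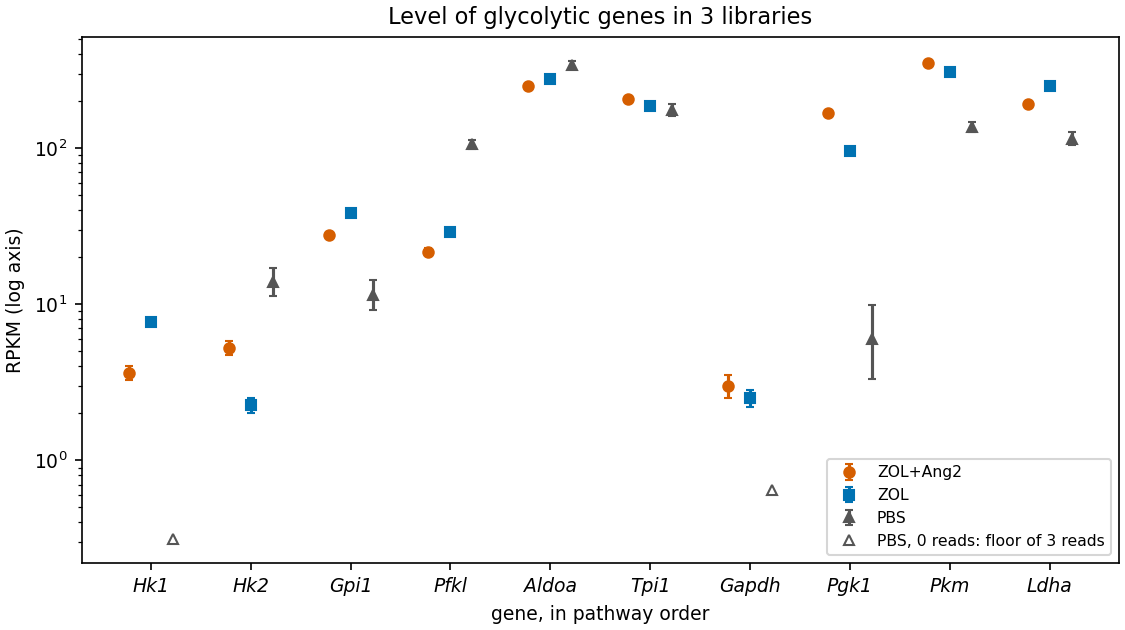
RPKM as deposited (log axis) of the 10 genes in pathway order, with a marker for each library and bars for the exact 95% Poisson interval of counting error. Open triangles mark Hk1 and Gapdh in PBS, which had 0 reads, at the floor of 3 reads. Levels are to be compared within a library: Pkm at 354 and 306 RPKM is highest in ZOL+Ang2 and ZOL, and Aldoa at 343 in PBS.

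In ZOL against PBS, most of these genes were higher in ZOL. Of the 10 genes, 8 were at least 2-fold higher, against 49.2% of the 10942 genes compared (those averaging 10 CPM or more), 1 was at least 2-fold lower, against 29.4%, and 1 lay within 2-fold, against 21.3%. With the copies of Gapdh added, 7 were higher. The median log2 fold of the 10 genes (computed after adding a prior of 5 CPM to each library) was 2.23, or 2.44 with Hk1 and Gapdh at their lower bounds, and that of all genes 0.94. This count depends on the scaling: with median-of-ratios factors, which move the median of all genes by -1.11, 5 were higher and 2 lower, while the median of the 9 then compared stood 1.72 above that of all genes, against 1.29 before. With those factors, with the library totals of the deposited RPKM and after thinning to equal read totals, Hk1, Gpi1, Pgk1, Pkm and Ldha were each more than 2-fold higher and Hk2 and Pfkl more than 2-fold lower, while Aldoa and Tpi1 lay within 2-fold. Of all genes past 2-fold 62.6% were higher in ZOL, but 47.3% with those factors, 51.0% after thinning to equal read totals and 39.9% with the library totals of the deposited RPKM. The median log2 fold of all genes also depends on level: among genes averaging 50 CPM or more, with 7 of the 10 compared, it was 1.45. The 10 genes took 0.632% of all reads in ZOL and 0.229% in PBS.

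Of the early steps, Hk1 (ENSMUSG00000037012, chromosome 10, 62268855 to 62379908, minus strand), the hexokinase of most tissues, had 1549 reads in ZOL (98.7 CPM) and 0 in PBS, which makes it at least 61.1-fold higher. Its level in ZOL lies far above the 1.61 CPM that 3 reads stand for in PBS, and of 1824 genes at or above the CPM of Hk1 in both ZOL+Ang2 and ZOL, 165 (9.05%) had 0 reads in PBS. Absence of a transcript and its loss before sequencing cannot be told apart. Hk2 (ENSMUSG00000000628, chromosome 6, 82725025 to 82774454, minus strand), the insulin- and hypoxia-responsive hexokinase, went the other way with 318 reads in ZOL (20.3 CPM) and 93 in PBS (50.05 CPM), 2.47-fold lower in ZOL (exact 95% counting interval 1.94 to 3.12). Gpi1 (ENSMUSG00000036427, chromosome 7, 34201330 to 34230336, minus strand), which turns glucose 6-phosphate into fructose 6-phosphate, stood at 376 CPM in ZOL and 44.7 in PBS, 8.43-fold higher (6.79 to 10.6). Pfkl (ENSMUSG00000020277, chromosome 10, 77986947 to 78010083, minus strand) stood at 292 CPM in ZOL and 427 in PBS, 1.46-fold lower (1.35 to 1.58). Aldoa (ENSMUSG00000030695, chromosome 7, 126795234 to 126800751, minus strand), which cleaves fructose 1,6-bisphosphate, stood at 1224 and 602 CPM, 2.03-fold higher in ZOL (1.91 to 2.16) and only just past 2-fold. Its log2 fold was 1.02, and -0.30 with the library totals of the deposited RPKM. Tpi1 (ENSMUSG00000023456, chromosome 6, 124810586 to 124814296, minus strand), which interconverts the triose phosphates, was 2.66-fold higher (2.44 to 2.90) at 775 CPM in ZOL and 292 in PBS.

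Of the later steps, Pgk1, Pkm and Ldha were each more than 2-fold higher in ZOL. Pgk1 (ENSMUSG00000062070, chromosome X, 106187100 to 106203699, plus strand), the first step that yields ATP, had 5102 reads in ZOL and 15 in PBS, 325 and 8.07 CPM, 40.3-fold higher (24.4 to 71.99). Pkm (ENSMUSG00000032294, chromosome 9, 59656368 to 59679375, plus strand) stood at 2305 CPM in ZOL and 411 in PBS, 5.61-fold higher (5.22 to 6.04). Ldha (ENSMUSG00000063229, chromosome 7, 46841475 to 46855627, plus strand), the subunit of lactate dehydrogenase that favours lactate formation, stood at 1244 and 229 CPM, 5.43-fold higher in ZOL (4.93 to 5.99). Relative to the median of all genes, Gpi1, Pgk1, Pkm and Ldha stood 2.00, 3.72, 1.53 and 1.47 log2 units higher, and Aldoa 0.08, Pfkl -1.48 and Hk2 -2.06.

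Markers of other cell types also differed between these libraries. The 10 epithelial and carcinoma markers summed to 6195 CPM in ZOL and 689 in PBS, with 7 of the 9 compared at least 2-fold higher, against 49.2% of all genes, and Krt19, Cldn4 and Cldn7 at 0 reads in PBS. Elf3 was lower, at 0.446 CPM in ZOL and 49.5 in PBS, and Cdh1 stood at 84.8 and 165 CPM. Elf3 reached the mean of 10 CPM only through PBS and Krt19 only through ZOL, so their directions follow from that limit. The 11 proliferation markers summed to 1739 and 99.6 CPM, with all 11 at least 2-fold higher, against 49.2% of all genes, and 4 at 0 reads in PBS. Of these, Ccnb1, Pcna and Bub1 reached the mean of 10 CPM only through ZOL, so their direction follows from that limit. The 8 fibroblast markers summed to 2131 CPM in ZOL and 384 in PBS, mostly through Fn1 at 1155 and 34.4 CPM and Mgp at 522 and 6.46, while Col1a1 stood at 53.5 and 189 and Col3a1 at 88.9 and 89.9. The 12 leukocyte and myeloid markers summed to 304 and 1343 CPM. Of the 9 compared, 7 were at least 2-fold lower in ZOL and 1 higher, against 29.4% and 49.2% of all genes. Lyz2 stood at 68.8 CPM in ZOL and 737 in PBS, and Cd14, the higher one, at 175 and 66.2. The part of these cell types in the differences of the glycolytic genes was not tested.

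In ZOL+Ang2 against ZOL, the glycolytic genes were close. None of the 10 was at least 2-fold higher, against 16.2% of all genes compared, 1 was at least 2-fold lower, against 24.8%, and 9 lay within 2-fold, against 59.0%. The median log2 fold was -0.18, against -0.02 over all genes. The counts were also 0 and 1 when both libraries were scaled and filtered without the PBS library. Hk1 was the gene that was lower, at 41.4 CPM in ZOL+Ang2 and 98.7 in ZOL, 2.38-fold lower (2.12 to 2.68). Its log2 fold was -1.16, and -0.96 with median-of-ratios factors, which places it just within 2-fold. Hk2 leaned the other way at 42.1 CPM in ZOL+Ang2 and 20.3 in ZOL, a ratio of 2.08 (1.78 to 2.42), with a log2 fold of 0.90 after the prior.

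The other 8 genes differed less between ZOL+Ang2 and ZOL. Gpi1 stood at 238 CPM in ZOL+Ang2 and 376 in ZOL, 1.58-fold lower (1.502 to 1.66), Pfkl was 1.503-fold lower (1.42 to 1.59) and Ldha, at 846 and 1244 CPM, 1.47-fold lower (1.43 to 1.51). Aldoa was 1.26-fold lower (1.23 to 1.29). Tpi1 at 767 and 775 CPM and Pkm at 2367 and 2305 CPM were level, with ratios of 0.989 (0.959 to 1.02) and 1.03 (1.01 to 1.04). Pgk1 was the exception at 507 CPM in ZOL+Ang2 and 325 in ZOL, 1.56-fold higher (1.499 to 1.62), and Gapdh alone had a ratio of 1.06 (0.860 to 1.31). The intervals cover counting error only, and mice of a group were pooled, so whether these ratios exceed the spread between animals cannot be told. The marker sums of these libraries were 5933 CPM in ZOL+Ang2 and 6195 in ZOL for the epithelial and carcinoma list, 1894 and 5623 for endothelial markers, of which 13 of 16 were lower against 24.8% of all genes, 13241 and 2131 for fibroblast markers, and 25180 and 7.20 for erythroid markers, and their part was not tested.

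ZOL+Ang2 against PBS shares the PBS library with the first comparison and the ZOL+Ang2 library with the other. In it 7 of the 10 genes were at least 2-fold higher, against 44.2% of all genes, 1 lower, against 33.1%, and 2 within 2-fold, against 22.7%, and with the copies of Gapdh added 6 were higher. The median log2 fold was 1.98, or 2.08 with Hk1 and Gapdh at their lower bounds, against 0.48 over all genes. Among genes averaging 50 CPM or more, with 7 of the 10 compared, the median over all genes was 1.43. Of all genes past 2-fold 57.1% were higher in ZOL+Ang2, but 46.0% with median-of-ratios factors and 39.0% with the totals of the deposited RPKM, under which 4 of the 10 genes were higher. Pfkl was the lower one, at 194 CPM in ZOL+Ang2 and 427 in PBS, 2.198-fold lower (2.02 to 2.39). Pgk1 was 62.8-fold higher (38.1 to 112), Pkm 5.76-fold higher (5.36 to 6.20) and Ldha 3.69-fold higher (3.35 to 4.08), while Hk2, at 42.1 and 50.05 CPM, had a ratio of 0.841 (0.668 to 1.07).

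**Figure D3:**
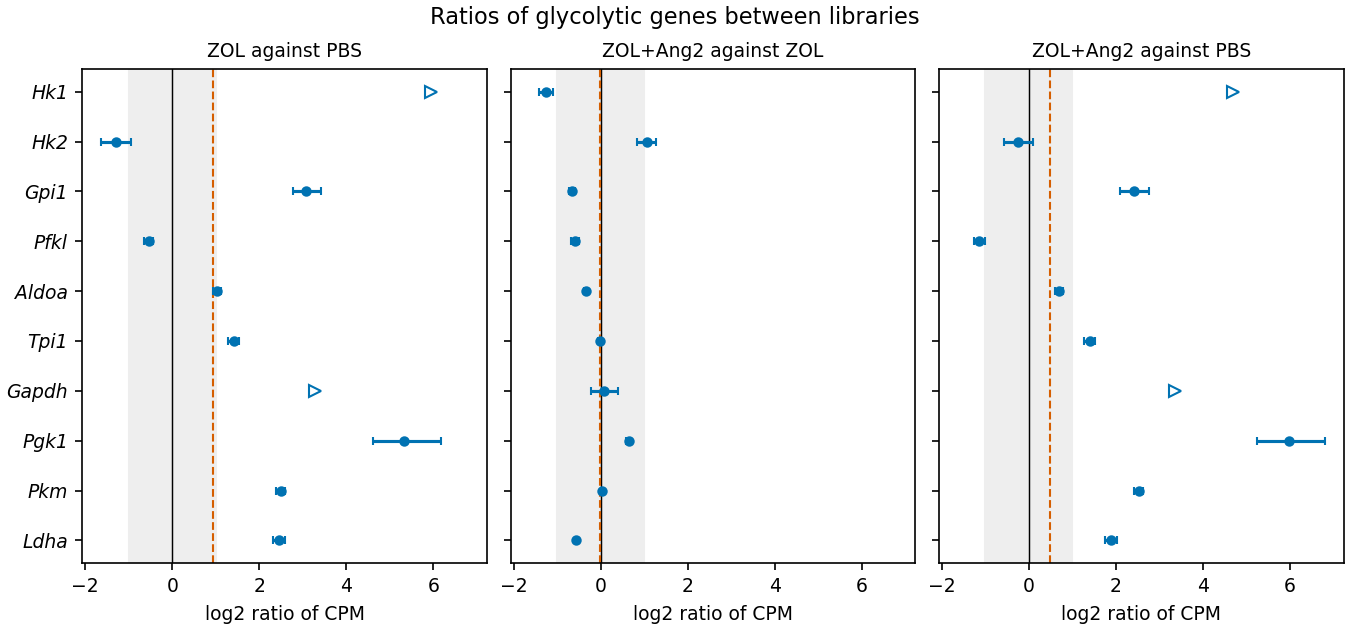
Log2 ratio of CPM (horizontal axis) of each gene in pathway order in 3 comparisons, with exact 95% intervals of counting error. Open arrowheads are lower bounds for Hk1 and Gapdh, which had 0 reads in PBS, the grey band is 2-fold either way and the dashed line the median log2 fold of all genes compared. Of the 10 genes, 8 lie past 2-fold higher in ZOL against PBS and none in ZOL+Ang2 against ZOL once the prior is added.

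Several steps have paralogues, and their make-up within a step differed between libraries. Of the summed hexokinase RPKM, Hk1 held 22.5% in ZOL+Ang2, 77.3% in ZOL and 0% in PBS, and Hk2 held 32.6%, 22.7% and 90.7%. Hk3, a hexokinase known from leukocytes, held 44.7% in ZOL+Ang2, with 312 reads against 0 in ZOL and 2 in PBS. The 12 leukocyte and myeloid markers summed to 2407, 304 and 1343 CPM in ZOL+Ang2, ZOL and PBS, and Ptprc stood at 76.1, 25.1 and 156 CPM although cells with CD45 were to be left out. Their part in the Hk3 difference was not tested. The hexokinase shares rest on exon lengths that are long for Hk1, as given above.

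Phosphofructokinase showed the same kind of difference. Pfkl held 35.7% of the step in ZOL+Ang2, 67.4% in ZOL and 99.6% in PBS, whereas Pfkm, the muscle-type subunit, held 50.9%, 24.2% and 0%. Pfkm had 1217 reads in ZOL+Ang2 and 823 in ZOL, 139 and 52.4 CPM, 2.65-fold higher in ZOL+Ang2 (2.42 to 2.90), and 0 in PBS. Pfkp, the platelet-type subunit, held 13.4%, 8.38% and 0.375%. Of 8 skeletal muscle markers, 7 were at 0 reads in ZOL+Ang2, 4 in ZOL and 6 in PBS, and their sums were 1.14, 66.4 and 60.8 CPM. Ckm, Acta1 and Atp2a1 were at 0 in each library, whereas Mylpf, Tnni2 and Tnnt3 had 487, 373 and 174 reads in ZOL, and Tnnt3 and Myh1 71 and 42 in PBS. Their part in the Pfkm values was not tested.

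Aldoa held at least 92.9% of aldolase in each library. Aldoc, the aldolase of brain, stood at 79.6 CPM in ZOL+Ang2, 10.3 in ZOL and 1.08 in PBS, 7.76-fold higher in ZOL+Ang2 than in ZOL (6.53 to 9.27). Ldhb, the subunit of lactate dehydrogenase that favours pyruvate, had 2 reads in ZOL+Ang2, 788 in ZOL and 0 in PBS, and held 7.84% of the step in ZOL. The pyruvate kinase of liver and red cells, Pklr, had 0 reads in each library.

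In PBS, paralogues known from testis or muscle had reads at later steps, though few. Pgk2, a testis phosphoglycerate kinase, had 64 reads in PBS, against 15 for Pgk1, and 85.5% of the step per length, with 0 reads in ZOL+Ang2 and ZOL. Ldhc, the testis lactate dehydrogenase, had 30 reads in PBS and 0 in the other libraries, and Pgam2, the muscle phosphoglycerate mutase, 81 and 0. Eno1 and its copy Eno1b, between which reads may be shared, held 45.2% and 54.3% of enolase in PBS, and Eno3, the muscle enolase, held 11.9% in ZOL+Ang2, 3.99% in ZOL and 0.465% in PBS. Gapdhs, the testis GAPDH, had 12 reads in ZOL+Ang2 and 0 in ZOL and PBS.

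**Figure D4:**
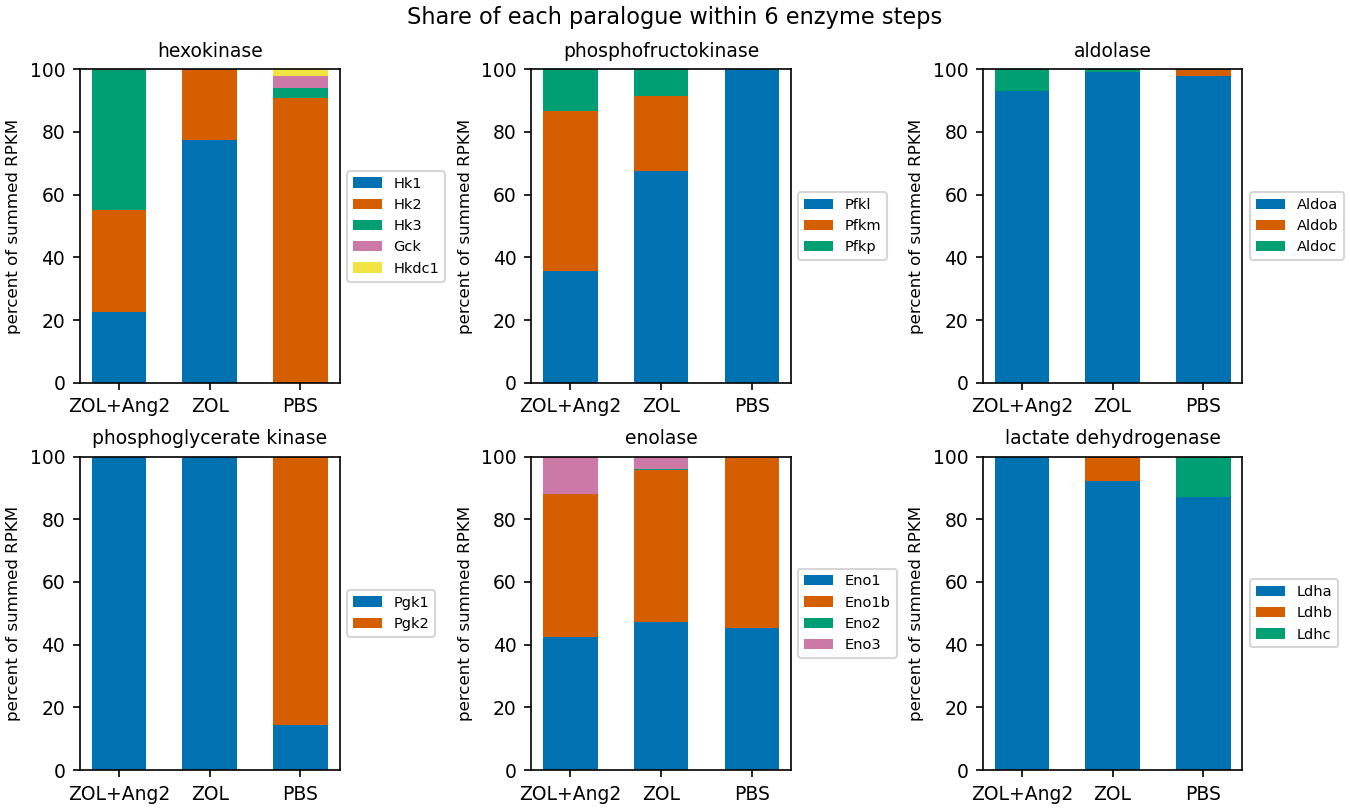
Stacked bars give the percent of the summed RPKM of a step (vertical axes) held by each paralogue in each library (horizontal axes), for 6 enzyme steps. Hk1 holds 22.5%, 77.3% and 0% of hexokinase in ZOL+Ang2, ZOL and PBS, Pfkl 35.7%, 67.4% and 99.6% of phosphofructokinase, and Pgk2 85.5% of phosphoglycerate kinase in PBS on 64 reads.

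The rest of the pathway is given from lists of genes around glycolysis, most of them short, so a count can lie near the share over all genes. A gene can also reach the mean of 10 CPM through 1 library alone, and its direction then follows from the filter. Of 20 other enzymes and isoforms of glycolysis, 13 were compared. In ZOL against PBS 10 were at least 2-fold higher and 2, Pgk2 and Pgam2, lower, against 49.2% and 29.4% of all genes, and the median log2 fold was 1.61 above that of all genes. Pgam1, the phosphoglycerate mutase of most tissues, was 9.39-fold higher (7.68 to 11.6) and Eno1 5.69-fold higher (5.25 to 6.18). Relative to ZOL, 6 were higher in ZOL+Ang2 and 1, Ldhb, lower, against 16.2% and 24.8% of all genes, with a median 0.98 above that of all genes. Of the genes called, Pgk2 and Pgam2 reached the mean of 10 CPM only through PBS and Ldhb only through ZOL. Hk3, Aldoc and Adpgk did so only through ZOL+Ang2, so the filter had a part in these counts and medians. Bpgm, which makes the haemoglobin regulator of red cells, was 5.24-fold higher (4.72 to 5.82) at 160 CPM in ZOL+Ang2 and 30.5 in ZOL, in libraries whose 7 erythroid markers summed to 25180 and 7.20 CPM, and the part of red cells in it was not tested. Eno1 was 1.32-fold lower (1.29 to 1.35) and Pgam1 1.17-fold lower (1.13 to 1.22).

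Transporters of glucose and lactate were compared next. Of 13 genes, a chaperone included, 6 were compared, and in ZOL against PBS 1 was at least 2-fold higher and none lower (49.2% and 29.4% of all genes), with a median log2 fold that differed from that of all genes by -0.70, or by 0.17 with median-of-ratios factors. The higher one was Slc16a1, the lactate transporter MCT1, with 393 CPM in ZOL and 2.15 CPM, or 4 reads, in PBS (183-fold higher, 71.3 to 671). The glucose transporter Slc2a1 stood at 972 and 919 CPM in ZOL and PBS, a ratio of 1.06 (1.01 to 1.11), and Bsg, the chaperone of MCT proteins, at 1735 and 1313. As deposited, Slc2a1 stood at 184 RPKM in ZOL and 435 in PBS, and Bsg at 634 and 1201, so both directions depend on the scaling. Between ZOL+Ang2 and ZOL, 3 were higher and 1 lower in ZOL+Ang2 (16.2% and 24.8% of all genes), with a median 1.11 above that of all genes that turned to -0.31 when the PBS library was left out of scaling and filter. The 3 higher ones, Slc16a3, Slc2a10 and Slc2a8, passed the filter only through ZOL+Ang2, so the filter shaped this count and median. Slc2a12, at 1.48 CPM in ZOL+Ang2 and 20.3 in ZOL, was not compared. Slc2a1 was 3.48-fold lower (3.33 to 3.63), at 280 CPM in ZOL+Ang2 and 972 in ZOL, beside endothelial markers of which 13 of 16 were lower (24.8% of all genes). Slc16a3, the lactate exporter MCT4, had 1323 reads in ZOL+Ang2 and 0 in ZOL and in PBS, at least 789-fold higher in ZOL+Ang2 than in ZOL, and Slc2a10 was 12.0-fold higher (9.38 to 15.5).

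Of 12 regulators of glycolytic flux 6 were compared, with 3 higher and 1 lower in ZOL against PBS (49.2% and 29.4% of all genes) and 1 higher and 2 lower in ZOL+Ang2 against ZOL (16.2% and 24.8%). The share higher in ZOL than in PBS was near that of all genes. Their medians differed from those of all genes by 0.30 and -0.39, or by 0.84 and -0.87 with genes at 0 reads set to their bounds, and the second value turned to 0.50 when the PBS library was left out of scaling and filter and to 0.08 with totals free of mitochondrial, haemoglobin, rRNA and satellite-type models. Among the regulators called, Pfkfb1 reached the mean of 10 CPM only through PBS, Pdp2 only through ZOL and Pdk1 only through ZOL+Ang2. The filter therefore had a part in these counts and medians. The kinases that switch off pyruvate dehydrogenase differed in opposite directions. Pdk1 was 6.70-fold higher in ZOL+Ang2 than in ZOL (5.67 to 7.96), at 75.1 and 11.2 CPM, and Pdk3 2.71-fold lower (2.40 to 3.08), at 35.6 and 96.6 CPM. Of the 8 genes of pyruvate entry to mitochondria 6 were compared, with 4 higher in ZOL than in PBS and none lower (49.2% and 29.4% of all genes), and none higher in ZOL+Ang2 than in ZOL and 2 lower (16.2% and 24.8%), and their medians differed from those of all genes by 1.11 and -0.45. Pdha1, a subunit of pyruvate dehydrogenase, was 5.24-fold lower in ZOL+Ang2 than in ZOL (4.57 to 6.03) at 26.3 and 138 CPM. Pcx, called in both comparisons, passed the filter only through ZOL.

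The pentose phosphate pathway, which branches off at glucose 6-phosphate, had 6 of 8 genes compared. In ZOL against PBS 4 were higher and 1 lower (49.2% and 29.4% of all genes), with a median log2 fold 3.37 above that of all genes, or 3.47 with G6pdx at its bound, and transketolase (Tkt) stood at 203 CPM in ZOL and 3.23 in PBS (62.9-fold higher, 28.9 to 171). The lower one was Rpia, ribose 5-phosphate isomerase, 17.9-fold lower (12.2 to 26.7), and Taldo1, transaldolase, stood at 216 CPM in ZOL and 394 in PBS, within 2-fold. Against ZOL, 1 gene of ZOL+Ang2, Rpia, was higher and 1 lower (16.2% and 24.8% of all genes), with a median 0.35 above that of all genes. G6pdx, the entry enzyme, was 6.99-fold lower (5.83 to 8.45), at 14.5 CPM in ZOL+Ang2 and 101.3 in ZOL, and Tkt was 1.79-fold higher (1.70 to 1.88). G6pdx reached the mean of 10 CPM only through ZOL and Rpia only through PBS, so the filter had a part in these counts and medians. Of 15 genes of gluconeogenesis and glycogen 9 were compared, with 4 higher and 1 lower in ZOL against PBS (49.2% and 29.4% of all genes) and 3 each way in ZOL+Ang2 against ZOL (16.2% and 24.8%), among them the liver-type glycogen phosphorylase Pygl with 540 reads in ZOL+Ang2 and 4 in ZOL. Their medians differed from those of all genes by -0.43 in ZOL against PBS, or by 0.22 with the totals of the deposited RPKM, and by 0.16 in ZOL+Ang2 against ZOL. Among the genes called, Gys1 passed the filter only through ZOL, and Pygl and Gbe1 only through ZOL+Ang2. The filter had a part in these counts and medians too.

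Of 15 genes of HIF-1 and its targets outside glycolysis 10 were compared. In ZOL against PBS 7 were higher and 2 lower (49.2% and 29.4% of all genes), and in ZOL+Ang2 against ZOL 3 were higher and 2 lower (16.2% and 24.8%), at medians 0.86 and 0.54 above those of all genes, or 1.33 and 0.65 with genes at 0 reads set to their bounds. Among the genes called, Car12 passed the filter only through PBS and Mxi1 only through ZOL+Ang2, so the filter had a part in these counts and medians. Hif1a itself stood at 29.4 CPM in ZOL+Ang2, 157 in ZOL and 5.38 in PBS. It was 5.33-fold lower in ZOL+Ang2 than in ZOL (4.68 to 6.08). The target P4ha1, a collagen prolyl hydroxylase, was 6.85-fold higher in the same comparison (5.89 to 8.001), and Ndrg1 3.74-fold lower (3.46 to 4.05).

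**Figure D5:**
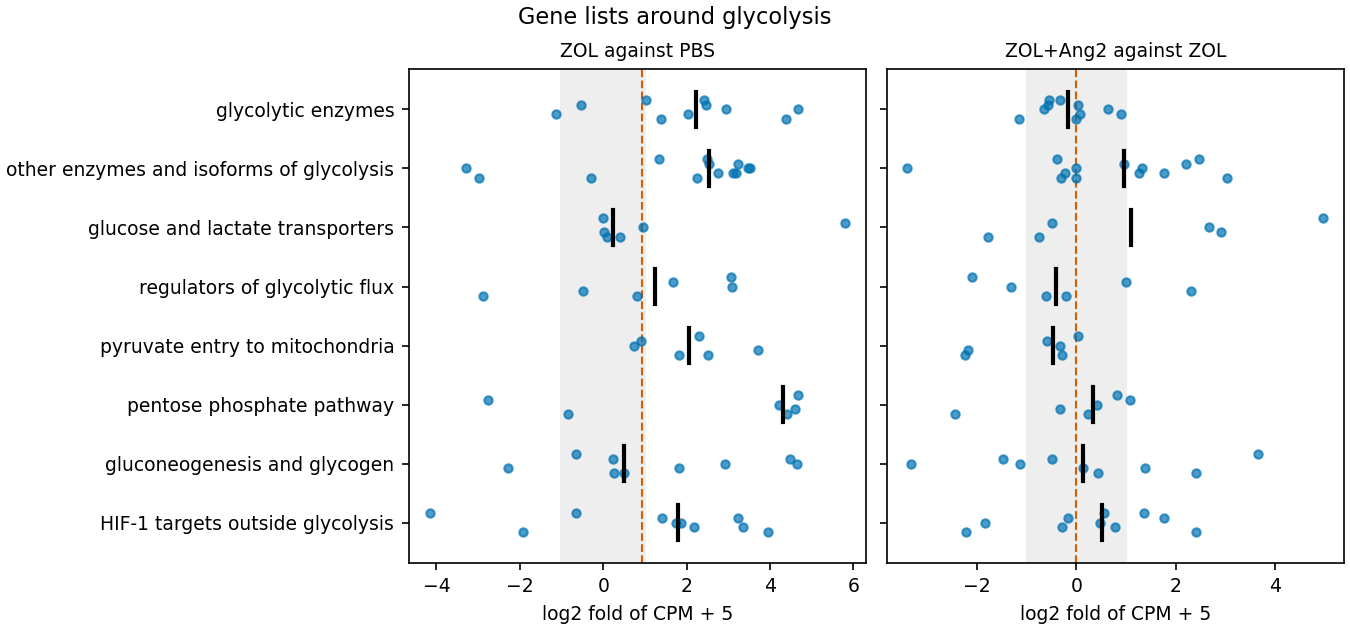
Each point is a gene of a list (rows) with a mean of at least 10 CPM, at its log2 fold of CPM plus 5 (horizontal axes), for ZOL over PBS and for ZOL+Ang2 over ZOL. Black bars are list medians, the grey band is 2-fold either way and the dashed line the median of all genes. In ZOL+Ang2 against ZOL, 9 of the 10 glycolytic enzymes lie within 2-fold, with a median of -0.18.

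The 250 bases before the RefSeq transcription start of 3 of the genes are shown because each carries at least 2 matches to ACGTG, while Pgk1 and Ldha were higher in ZOL than in PBS and Hk2 lower. ACGTG is a form of the core of the hypoxia response element bound by HIF-1. Capitals mark ACGTG on either strand (CACGT where it lies on the other), and matches that overlap run together as CACGTG, the letters of the E-box bound by MYC and others. The regions are chrX:106186850-106187099 (plus strand) for Pgk1, chr7:46845554-46845803 (plus strand) for Ldha and chr6:82774455-82774704 (minus strand, shown as read along the gene) for Hk2, in GRCm38.p6.
Pgk1: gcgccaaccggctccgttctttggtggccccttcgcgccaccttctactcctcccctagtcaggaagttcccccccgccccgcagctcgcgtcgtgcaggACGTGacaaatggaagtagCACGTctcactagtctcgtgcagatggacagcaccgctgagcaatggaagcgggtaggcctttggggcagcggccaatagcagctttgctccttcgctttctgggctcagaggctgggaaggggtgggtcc
Ldha: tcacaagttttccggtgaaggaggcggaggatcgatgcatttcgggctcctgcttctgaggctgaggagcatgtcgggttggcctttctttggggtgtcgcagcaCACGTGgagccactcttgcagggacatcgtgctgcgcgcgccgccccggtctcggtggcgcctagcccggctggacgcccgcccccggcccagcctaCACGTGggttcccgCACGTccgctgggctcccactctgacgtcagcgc
Hk2: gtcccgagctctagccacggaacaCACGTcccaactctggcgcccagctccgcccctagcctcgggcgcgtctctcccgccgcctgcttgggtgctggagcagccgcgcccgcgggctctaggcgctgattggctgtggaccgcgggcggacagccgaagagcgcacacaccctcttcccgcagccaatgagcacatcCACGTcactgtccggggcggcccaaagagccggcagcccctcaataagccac

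All 10 genes had at least 1 such window in the RefSeq table, 15 windows in all. ACGTG was found on either strand in 6 of the 15 windows, from 5 genes (Hk2, Aldoa, Pgk1, Pkm and Ldha), and in 16.6% of all 32851 windows. Among the 6 are 2 overlapping windows of Aldoa that hold the same match. The share over all windows is per window and not per gene. Ldha has a further start whose window held none. CACGTG, every match of which also holds ACGTG, was found in 1 of the 15 windows, that of Ldha with 2 matches, and in 6.02% of all windows. Other forms of the hypoxia response element core were not counted. A match is a run of letters and not a binding site.

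By a rule of distance between patterns, the genes most like the median of the 10 genes over the 3 libraries were Npm1, Perp, Ahnak, Chchd2 and Hspa5. Npm1, a nucleolar chaperone, stood at 1024 CPM in ZOL+Ang2, 1162 in ZOL and 240.0 in PBS, and Hspa5, a chaperone of the endoplasmic reticulum, at 1537, 1653 and 329. Their distances in the plane of the 2 log2 folds were 0.03 to 0.11, and 90 of 1373 candidate genes lay within 0.5, so with 3 libraries the likeness singles out no gene.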

How the data were processed

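The authors deposited RPKM values per gene for each of 3 libraries. The submitters' processing notes name mm10 and the tools HISAT2 2.2.1, featureCounts 2.0.6 and fastp. No source used here states the library total, the annotation or how reads that fit several genes were counted. RPKM times the exon length of GENCODE M21 gave whole multiples of 1 step per library (tolerance 0.01) for 96.2%, 96.4% and 96.9% of values above 0 in ZOL+Ang2, ZOL and PBS, and reads were recovered by dividing by the step. The reads come to 0.785, 0.701 and 1.50 times the totals that the steps imply, so whether they are the authors' counts is open. Of 54532 genes, 37 had no exon length and were left out. The values were computed with Python 3.11.15, numpy 2.4.6, pandas 2.3.3 and scipy 1.17.1.

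TMM factors (trims of 30% and 5%) were used to scale reads to CPM. The comparison took genes averaging 10 CPM or more, with a prior of 5 CPM for log2 folds, and called past 2-fold. Ratios named in the text have no prior and carry exact binomial intervals at 95%, and the floor for 0 reads is 3 reads in a library. The amplified reads carry no molecular identifiers, so intervals and floors cover counting error only. Among genes with few reads, 51.0%, 53.2% and 61.0% had an even number in ZOL+Ang2, ZOL and PBS, and whether reads or mate pairs were counted is not stated. If mates were counted singly, the molecules behind a count are fewer, most of all in PBS, intervals are too narrow, and the floor of 3 reads is too low. Copies were found with megablast (blastn 2.17). Promoter windows are RefSeq's, build GRCm38.p6. Candidates for the genes most like the 10 averaged at least 100 CPM and were in no list. The steps were tested on simulated reads. Alternatives covered scaling, thinning, filter, prior, fold limit and gene length. The genes and lists were chosen with earlier results of these data known. Other genes were named by level (up to 4 of highest mean CPM in a list) or by fold (up to 2 each way with a mean of at least 20 CPM). Hk3, Ldhb, Pgk2, Pgam2, Ldhc, Eno3, Gapdhs, Pklr, Pfkfb1, Pcx, Gys1, Mxi1 and the markers Krt19, Cldn7, Prox1, Lyve1, Ccl21a, Erg, Elf3, Ckm, Acta1 and Atp2a1 were added after their values were seen. So were 3 alternatives: scaling without PBS, adding the Gapdh copies, and the length of 1 transcript.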

Additional observations from a re-analysis of the deposited data

How the results depend on the processing

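No paired analysis was possible because each group was 1 library, and for the same reason no library could be left out of its group. Under 5 scalings, 2 filters, 2 fold limits and another prior, the counts that moved by over 1.5 times, and the medians that moved, were as follows, and the cause was not tested. In ZOL against PBS, the glycolytic genes higher numbered 5 with median-of-ratios factors, with the totals of the deposited RPKM and after thinning to equal read totals, and those lower 2 each time. None was lower with a filter of 50 CPM or a limit of 4-fold. Their median relative to all genes was 1.94 with the deposited totals and 2.09 with a filter of 1 CPM. Aldoa turned to -0.30 with the deposited totals. In ZOL+Ang2 against ZOL, 1 was higher with median-of-ratios factors or a prior of 1 CPM and 2 with a limit of 1.5-fold, whereas 0 were lower with median-of-ratios factors, the deposited totals, the filter of 50 CPM or 4-fold, and 2 with 1.5-fold. The median of the transporters relative to all genes turned to -0.29 with median-of-ratios factors, -0.31 with the deposited totals, -0.45 after thinning and -0.31 when scaled and filtered without PBS. In ZOL+Ang2 against PBS, 4 were higher and 2 lower with the deposited totals, 0 lower with 4-fold, and the relative median was 0.43 with the filter of 50 CPM. Over all genes in ZOL against PBS, 5492 were lower with the deposited totals, 6403 with the filter of 1 CPM, and 551 lower and 2040 higher with that of 50 CPM. For ZOL+Ang2 and ZOL, 2685 were higher and 4520 lower with the filter of 1 CPM, 512 and 673 with that of 50 CPM, and 662 and 1474 with 4-fold. For ZOL+Ang2 and PBS, 5582 were lower with the deposited totals, 6843 with the filter of 1 CPM, and 637 lower and 2002 higher with that of 50 CPM. Among the values of single genes and lists, 55 kept within the allowed change, 37 moved and 1 reversed with median-of-ratios factors, and 40, 51 and 2 did so with the deposited totals. Of the levels per length, 24 moved and 6 did not with the length of 1 transcript. A filter changes how many genes are compared. The PBS library, with the fewest reads, sets the precision of every comparison with PBS: 3 reads there are 1.61 CPM.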
